A study of Mus musculus with 6 samples.

Results

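Cathepsins are the proteases that break down protein inside lysosomes, and legumain is a lysosomal protease that cuts after asparagine and also trims several cathepsins. The 10 genes described here are the cysteine cathepsins Ctsb, Ctsc, Ctsh, Ctsl, Ctss and Ctsz, the aspartic protease Ctsd, the serine carboxypeptidase Ctsa, legumain (Lgmn) and Cst3, which encodes cystatin C, a secreted inhibitor of cysteine cathepsins. They were given by name, and all 10 were found by symbol among the 25751 Ensembl genes of the count table. All 10 also passed the filter on low counts that left 14626 genes to be tested. RNA was sequenced after poly(A) selection from primary wild-type (WT) mouse myeloid cells that were treated with TMAO (3 libraries) or served as control (3 libraries), each labelled 24 h. TMAO (trimethylamine N-oxide) is a small osmolyte that the liver forms from a product of gut bacteria, and the study asked how it affects myeloid cells. The sources used here do not give the dose, the strain, sex or age of the mice, or whether libraries came from separate cultures. The p-values therefore rest on the scatter among libraries of a group, which may be no more than technical. The sample descriptions name the treated libraries T-BMDM and the others Control, without saying whether both were grown the same way, and such a difference cannot be told apart from TMAO.

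Cathepsins are made as inactive precursors, tagged with mannose 6-phosphate in the Golgi, carried to endosomes by receptors for that tag, and activated when the propeptide is cut off in acid. In macrophages they digest engulfed material, shape the peptides that MHC class II molecules present, and cut the endosomal Toll-like receptors into their signalling form. Cystatins block cysteine cathepsins that leak or are secreted.

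The libraries held 37759007 to 41735109 counts. Over all genes tested, 9608 passed the test between TMAO and control (65.7%), 4830 higher (33.0%) and 4778 lower (32.7%), so a passed test was common for any gene. Levels are compared between libraries in CPM, in which TMM factors bring the counts of each library to one size. The macrophage markers Lyz2, Csf1r, Cd68, Adgre1, Mertk, Fcgr1 and Mrc1 were counted in both groups, with summed levels of 42317 to 46796 CPM in control and 37349 to 45617 CPM in TMAO libraries, and 5 of 7 passed the test lower and 1 higher (median log2 fold change -0.81). Lyz2 made up most of that sum, at 37023 ± 2335 CPM in control and 37357 ± 4499 CPM in TMAO libraries (mean ± SD, n = 3 per group), and did not pass the test (edgeR adjusted p = 0.923), so the sum says little of the others: Adgre1 fell from 1705 ± 56.5 to 526 ± 67.3 CPM and Mertk from 162 ± 15.8 to 16.3 ± 3.67 CPM, all 3 named after their values were seen. Of 12 neutrophil markers, 11 passed higher and 1 lower, and their sum went from 205 to 230.0 CPM in control to 3773 to 5000.3 CPM in TMAO libraries. All 6 monocyte markers passed higher (172 to 223 against 999.6 to 1047 CPM). Of 7 dendritic cell markers, 5 passed higher and 1 lower, with a lower sum (58.3 to 60.0 against 31.4 to 35.8 CPM), and Siglech and Cd209a had no control counts. The sums of the B cell list (5 of 6 higher, Pax5 without control counts) and of the T and NK cell list (1 of 5 higher, Cd3d, Nkg7 and Ncr1 without control counts) did not exceed 15.8 and 2.40 CPM. Of the mast cell and basophil list, 1 of 4 passed higher (at most 9.49 CPM, with Mcpt8 and Ms4a2 at 0 in control). Of the megakaryocyte and erythroid list, 3 of 5 passed higher (41.7 to 62.2 against 318 to 505 CPM), and of the stromal and endothelial list, 1 of 5 (at most 7.98 CPM). Of the markers that passed higher, 6 of the neutrophil, 4 of the dendritic cell and 5 of the B cell list reached the filter in the TMAO libraries alone, so these could only be higher. The same holds for Nkg7 and Hdc, the only T and NK cell and mast cell and basophil markers that passed. It also holds for Gp9 of the megakaryocyte and erythroid list. The part of these shifts in the results on cathepsins was not tested. In bulk RNA, fewer cells of a type and less RNA per cell cannot be told apart.

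Most of the genes described here were lower in TMAO libraries. Of the 10 genes, 7 fell (Ctsb, Ctss, Ctsl, Ctsh, Ctsd, Ctsa and the inhibitor gene Cst3), 1 rose (Ctsc) and 2 did not pass the test (Ctsz and Lgmn), at an adjusted p under 0.05 by edgeR. Over all genes tested, 32.7% passed lower and 33.0% higher. The median log2 fold change of the 10 was -0.64, against 0.005 over all genes tested. The quartiles of all genes were -0.65 and 0.66. Ctsa, Ctsd and Ctsl lay inside them, and Ctss, Ctsh, Ctsb and Cst3 lay beyond the lower one. The CPM of the 2 groups did not overlap for the same 8 genes, 7 lower and 1 higher, and non-overlap was also common over all genes (71.0%, of which 35.4% lower and 35.6% higher).

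**Figure D1:**
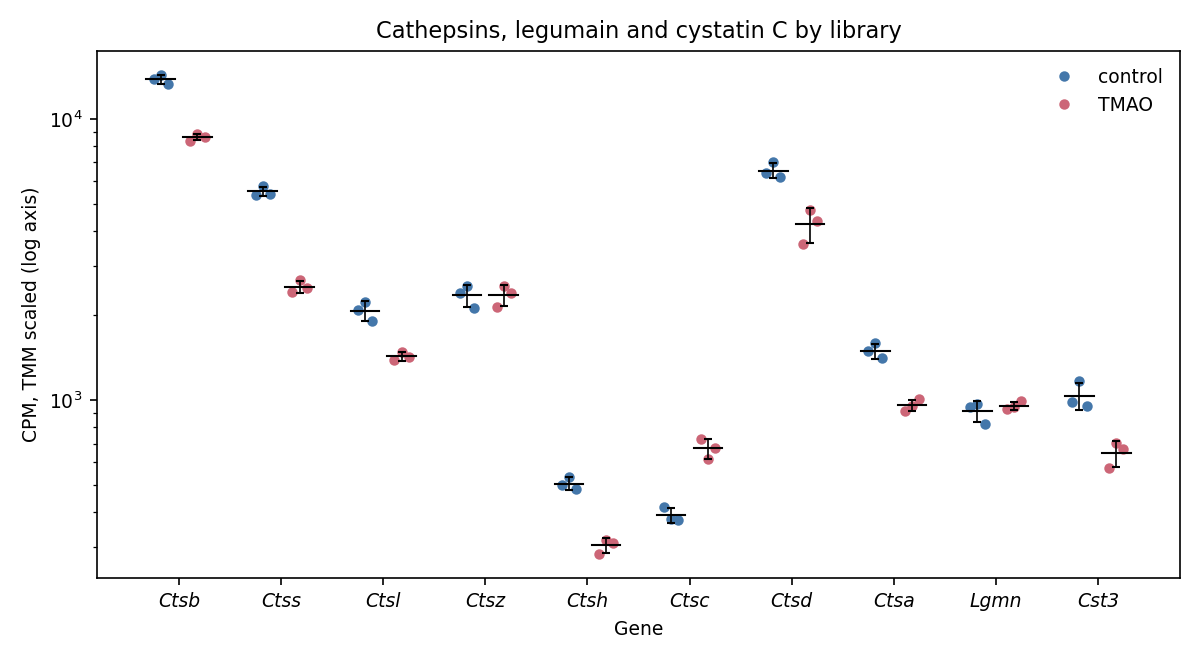
CPM (TMM scaled, log axis) of each gene in the 3 control and 3 TMAO libraries; points are libraries, the horizontal line is the mean and the bar the SD. The TMAO points lie below all control points for 7 genes and above them for Ctsc, and the ranges of the groups overlap for Ctsz and Lgmn.

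Promoter sequences are shown for 4 of the genes because pairs of them share a motif. Windows of 250 bases before to 50 after an annotated start (RefSeq, GRCm38.p6) were found for 8 of the 10 genes, 10 windows in all; Ctsb and Ctsh were not matched. The palindrome TCACGTGA, the core of the element bound by TFEB and its relatives at many lysosomal genes, was searched on both strands and found in windows of Ctsa and Ctsd, against 0.974% of all 32851 windows. Both genes fell. The shorter E-box CACGTG, which every TCACGTGA contains, was found in windows of Ctsa, Ctsd, Ctsl and Lgmn, against 7.15% of all windows. Ctsl also fell, and Lgmn did not pass the test. Ctsa and Lgmn each have a further window without a match. For Lgmn, the start of the matching window was not found at the beginning of a GENCODE transcript. The start of its other window was. For Ctsa the reverse held. Of the genes whose windows held no CACGTG, Ctss and Cst3 fell, Ctsz did not pass and Ctsc rose. A link between motif and direction was not tested. GAGGAAGT, a form of the site of the myeloid factor PU.1, was found in Ctss and Ctsc, against 3.20% of all windows; it lies on the opposite strand and reads ACTTCCTC below. Ctss had the largest decrease of the 10 genes and Ctsc the only increase, so the pair that shares this motif differed in opposite directions. A match is a run of letters, not a measured binding site. The stretches are given 5′ to 3′ along the gene's strand, with the motif in capitals:
Ctsa, chr2:164833690-164833784, plus strand, from -83 to 12 around the start: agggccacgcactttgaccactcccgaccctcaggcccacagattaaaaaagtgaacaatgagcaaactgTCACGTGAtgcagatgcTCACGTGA
Ctsd, chr7:142387873-142387972, minus strand, from -145 to -46: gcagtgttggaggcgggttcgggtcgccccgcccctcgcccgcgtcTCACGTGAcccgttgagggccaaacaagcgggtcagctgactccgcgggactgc
Ctss, chr3:95526714-95526791, plus strand, from -72 to 6: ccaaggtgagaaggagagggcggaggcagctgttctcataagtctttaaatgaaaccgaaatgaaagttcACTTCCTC
Ctsc, chr7:88277888-88277987, plus strand, from -197 to -98: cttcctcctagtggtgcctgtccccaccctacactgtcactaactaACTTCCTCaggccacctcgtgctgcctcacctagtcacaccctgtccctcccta

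Of the 10 genes, Ctss (ENSMUSG00000038642) had the largest difference. It encodes cathepsin S, which stays active at neutral pH and makes the last cuts in the invariant chain of MHC class II. Its level was 5383, 5779.7 and 5409 CPM in control replicates 1 to 3 and 2419.9, 2672 and 2505 CPM in TMAO replicates 1 to 3. Every TMAO library was below the lowest control by a wide margin compared with the spread inside a group. The log2 fold change was -1.13 (SE 0.09, edgeR adjusted p = 1.90e-06), or 45.8% of control. Ctss also passed a test against a fold of 1.5 (edgeR adjusted p = 7.37e-05), which only Ctsh and Ctsc among the other 9 genes did. Ctsh passed it narrowly (edgeR adjusted p = 0.0489), and Ctsc had an edgeR adjusted p = 0.0210.

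Ctsb (ENSMUSG00000021939) encodes cathepsin B, an endopeptidase that also acts as a carboxypeptidase and took the most counts of the 10 genes in every library. Its level was 13861, 14339.7 and 13277 CPM in control and 8373, 8822 and 8618 CPM in TMAO libraries. The groups were far apart and the libraries of a group close together. It fell by 0.68 on the log2 scale (SE 0.08, edgeR adjusted p = 4.79e-05), and by 0.38 with a trend on transcript length removed (edgeR adjusted p = 0.00249). Ctsh (ENSMUSG00000032359), an aminopeptidase that trims the ends of peptides, had 499, 535 and 481 CPM in control and 284, 319 and 309.8 CPM in TMAO libraries. Its groups did not overlap either, and it fell by 0.73 on the log2 scale (SE 0.09, edgeR adjusted p = 3.65e-05).

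Ctsl (ENSMUSG00000021477) encodes cathepsin L, a strong endopeptidase. It had 2083, 2240.9 and 1911 CPM in control and 1383, 1478 and 1428 CPM in TMAO libraries, without overlap. The log2 fold change was -0.54 (SE 0.09, edgeR adjusted p = 0.000377). This call depends on the trend with transcript length: ordered by transcript length, the 20% shortest genes had a median log2 fold change of 0.49 and the 20% longest one of -0.53, and Ctsl, at 6168 bases for its longest transcript, is among the latter. With that trend removed its log2 fold change was -0.060 (edgeR adjusted p = 0.586).

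Ctsz (ENSMUSG00000016256), a carboxypeptidase also called cathepsin X, stood level. It had 2401, 2536 and 2133 CPM in control and 2146, 2538 and 2399 CPM in TMAO libraries. The 2 ranges covered nearly the same interval. The estimate was 0.0025 on the log2 scale (edgeR adjusted p = 0.984), and its 95% interval from -0.22 to 0.23 leaves room for modest differences in both directions. With the length trend removed it was called lower (log2 fold change -0.32, edgeR adjusted p = 0.0169).

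Ctsc (ENSMUSG00000030560) was the member that rose. It encodes cathepsin C, or dipeptidyl peptidase I, which removes 2 residues at a time and activates the serine proteases of granules. It had 417, 378 and 374 CPM in control and 727, 618 and 674 CPM in TMAO libraries. The lowest TMAO library lay well above the highest control. The log2 fold change was 0.79 (SE 0.09, edgeR adjusted p = 3.46e-05), a 1.73-fold increase. Of 7 serine proteases that cathepsin C activates, 4 were tested. Elane, Ctsg and Prss57 reached the filter on low counts in the TMAO libraries alone, so their direction was fixed by it and their count supports nothing. The fourth, which reached it in both groups, rose. Prtn3, encoding proteinase 3, went from 0.360 ± 0.108 to 71.3 ± 8.95 CPM (mean ± SD, n = 3 per group). Ctsg, encoding cathepsin G, a granule serine protease that shares only the name with the lysosomal cysteine cathepsins, had 7 counts in the 3 control libraries together and 5950 in the TMAO libraries. These 4 genes belong to granulocyte precursors, and the neutrophil markers that rose beside them include Prtn3 and Elane, so the lists are not independent. Gzma, a granzyme of lymphocytes, had 2 control counts and none with TMAO and was not tested, and Gzmb and Cma1 were not analysed here.

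Ctsd (ENSMUSG00000007891) encodes cathepsin D, the main aspartic protease of the lysosome. It had 6402, 7008 and 6233 CPM in control and 3581, 4749 and 4337 CPM in TMAO libraries. TMAO replicate 1 was the lowest, and the spread among TMAO libraries, relative to their mean, was the widest of the 10 genes, yet the groups did not overlap. Ctsd fell by 0.63 on the log2 scale (SE 0.11, edgeR adjusted p = 0.000633). Ctsa (ENSMUSG00000017760) encodes the carboxypeptidase that holds beta-galactosidase and neuraminidase in a protective complex. It had 1489, 1592 and 1409.9 CPM in control and 917, 949.8 and 1008 CPM in TMAO libraries, also without overlap. Its log2 fold change was -0.64 (SE 0.09, edgeR adjusted p = 9.12e-05).

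Lgmn (ENSMUSG00000021190) had 942, 969 and 823 CPM in control and 932, 942 and 990.5 CPM in TMAO libraries. Control replicate 3 was lowest, and the other 5 libraries lay close together. The estimate was 0.068 on the log2 scale (edgeR adjusted p = 0.526), with a 95% interval from -0.13 to 0.27. Cst3 (ENSMUSG00000027447) had 987, 1171 and 952 CPM in control and 572, 707 and 667 CPM in TMAO libraries. All TMAO libraries were below all controls, with replicate 1 again the lowest. The inhibitor gene fell by 0.68 on the log2 scale (SE 0.11, edgeR adjusted p = 0.000363), and by 1.11 with the length trend removed (edgeR adjusted p = 1.42e-05), the opposite shift to that of Ctsb.

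**Figure D2:**
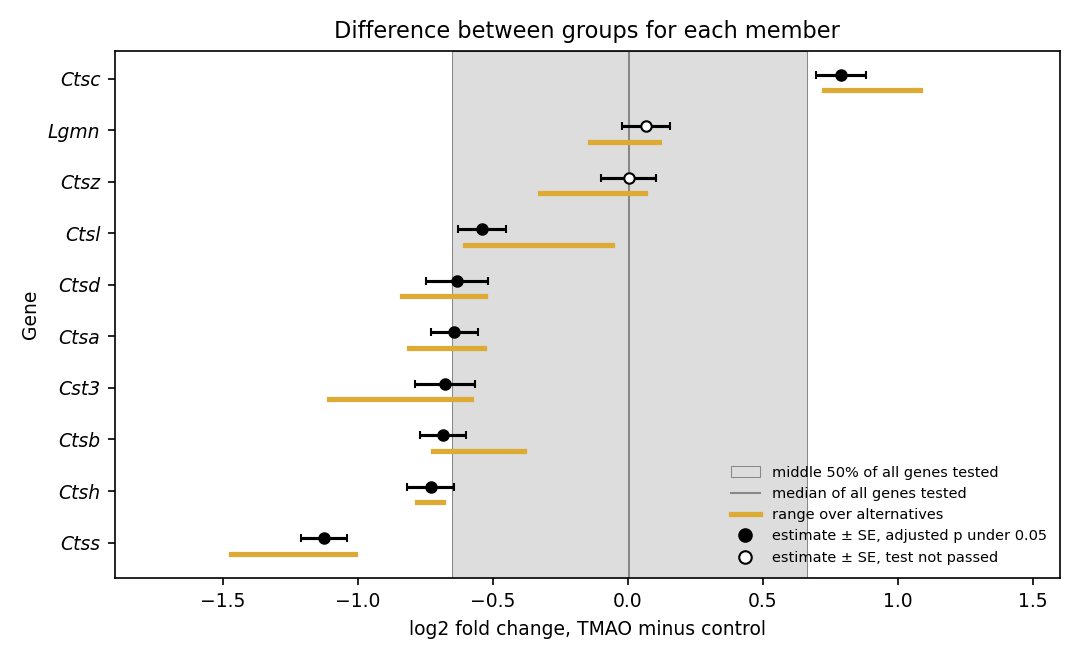
Log2 fold change, TMAO minus control, of each gene with its SE; filled points passed the test, yellow bars give the range over 20 other analysis settings, and the grey band and line give the quartiles and median of all genes tested. Ctss, Ctsh and Ctsc lie outside the grey band, from -0.65 to 0.66, under all settings, and the bar of Ctsl reaches -0.060.

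The 10 genes took 3.37% to 3.62% of all counts in control libraries and 2.18% to 2.29% in TMAO libraries. Within that pool the make-up also shifted. Ctss made up 15.6% to 16.4% of the pool in control and 10.9% to 11.3% in TMAO libraries. Ctsz went from 6.46% to 6.97% in control to 10.1% to 10.7% with TMAO, Lgmn from 2.49% to 2.73% to 3.96% to 4.37%, and Ctsc from 1.03% to 1.21% to 2.60% to 3.41%. The ranges of these 4 genes did not overlap between groups, nor did those of Ctsl (5.79% to 6.13% in control, 6.21% to 6.48% with TMAO) and Ctsh (1.45% to 1.46% and 1.33% to 1.35%). Cst3 made up 2.86% to 3.20% of the pool in control and 2.68% to 2.97% in TMAO libraries, and these ranges overlapped, as did those of Ctsa, Ctsd and, narrowly, Ctsb. The shares of one pool are tied to each other, so they describe the make-up and add no separate evidence for a gene.

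**Figure D3:**
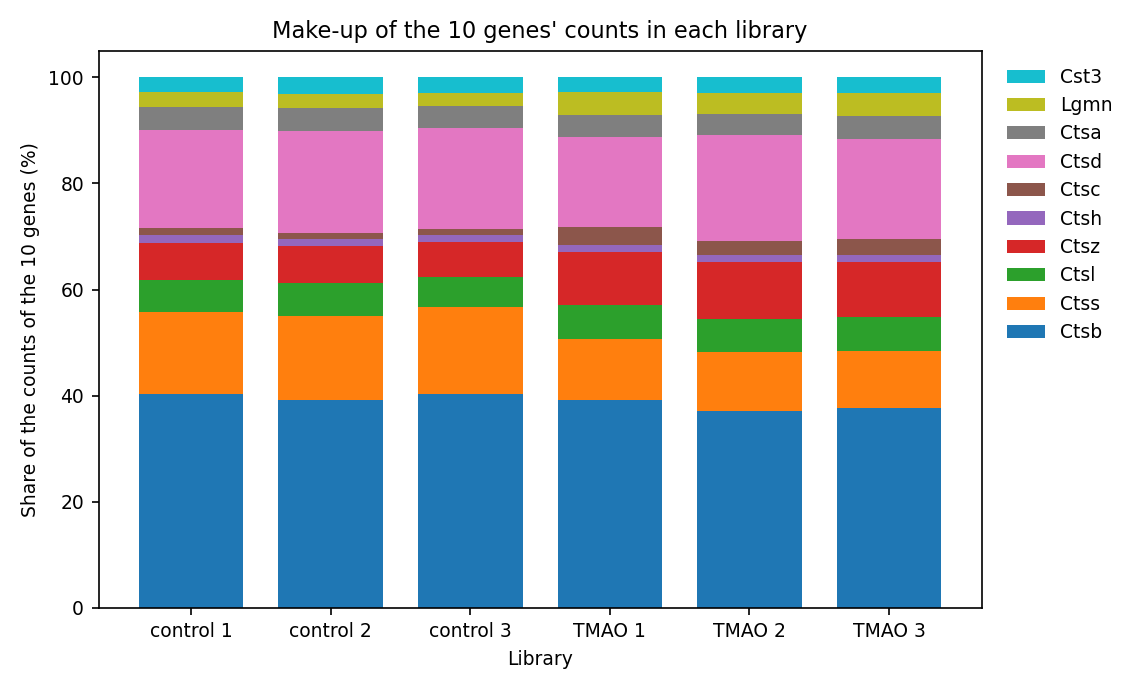
Share (%) of the counts of the 10 genes taken by each gene in each of the 6 libraries; bar segments stack to the whole pool. Ctsb takes 37.1% to 40.2% in every library, while the Ctss segment is thinner and the Ctsz, Lgmn and Ctsc segments are thicker in the 3 TMAO libraries.

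Levels of different genes can be compared only per length. Scaled per kilobase of the longest annotated transcript and to one common total over all genes with a length (TPM), Ctss was the highest in control at 9602 ± 125 TPM (mean ± SD, n = 3), where it ranked 9 or 10 among 25386 genes. Ctsd followed at 7246 ± 114 and Ctsb at 6867 ± 120.3 TPM, then Ctsz at 3848 ± 204 and Cst3 at 2833 ± 187 TPM. Lgmn stood at 1078 ± 62.6, Ctsa at 966 ± 19.3, Ctsl at 793 ± 31.6, Ctsh at 433 ± 4.49 and Ctsc at 285 ± 23.7 TPM. In control, no pair of neighbours in this order had overlapping ranges. TPM carries no TMM factors, so the TPM of a gene is not compared between groups here. Ctsz, for one, had 3343 ± 52.4 TPM in TMAO libraries, below its control range, although its CPM ranges overlapped. In TMAO libraries Ctsd (4039 ± 288 TPM), Ctss (3820.2 ± 103 TPM) and Ctsb (3712 ± 173 TPM) stood together, with overlapping ranges between neighbours, and Ctss ranked 21 to 24. Ctsc (429.96 ± 66.0 TPM) overlapped Ctsl (474 ± 18.9 TPM) and lay above Ctsh (227 ± 4.003 TPM), the reverse of the control order. The TPM of a gene depends on which transcript is taken: with the exon union as length, Ctsl stood above Ctsa, with overlapping ranges in control. The place of Ctsc in TMAO libraries also depended on it. With the longest APPRIS principal transcript, Ctsc (489 ± 76.5 TPM) stood above Ctsa and Ctsl, with overlapping ranges. With the exon union it stood below both without overlap. Ctss, Ctsd and Ctsb were the leading 3 in control under each of the 3 lengths tried, while in TMAO libraries Ctsz stood above Ctsb with the exon union.

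The other genes of the pathway were taken from lists by role. Of 7 other cathepsin genes including napsin A, 5 reached the filter in both groups, of which 3 rose and 1 fell; Ctsg, described above, reached it in the TMAO libraries alone. Ctsk, encoding the collagen-degrading cathepsin K known from osteoclasts, rose from 26.1 ± 0.172 to 53.6 ± 5.32 CPM (log2 fold change 1.04, edgeR adjusted p = 8.16e-06). With the length trend removed, the log2 fold change of Ctsk was 0.73. Ctso, encoding cathepsin O, fell from 77.3 ± 3.69 to 24.9 ± 0.265 CPM (log2 fold change -1.63, edgeR adjusted p = 1.70e-07). Of 4 other lysosomal peptidases, 2 fell, none rose and 2 did not pass (median -0.26). Prcp, a carboxypeptidase that cuts after proline, fell from 107 ± 3.85 to 50.4 ± 1.15 CPM, and Tpp1, a tripeptidyl peptidase, from 348 ± 2.90 to 244 ± 21.0 CPM.

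Of 16 listed inhibitor genes other than Cst3, 5 reached the filter in both groups, of which 3 rose, none fell and 2 did not pass. Another 7 (Csta2, Stfa1, Stfa2, Stfa2l1, Stfa3, Serpinb1a and Serpina3g) reached it in the TMAO libraries alone and could only be higher, so they are not counted as support. Cst7, encoding cystatin F, an inhibitor that acts inside lysosomes and targets cathepsin C among others, rose from 3.68 ± 0.751 to 13.5 ± 1.57 CPM (log2 fold change 1.87, edgeR adjusted p = 6.78e-06). With the length trend removed, the log2 fold change of Cst7 was 1.47. Ctla2a, related to cathepsin propeptides, rose from 0.774 ± 0.0233 to 16.1 ± 3.67 CPM. The remaining rise was that of the serpin gene Serpinb6a, named after its value was seen. It was small (log2 fold change 0.38, edgeR adjusted p = 0.0185), and its groups overlapped. Serpinb1a, one of those 7, a serpin that inhibits neutrophil serine proteases rather than cysteine cathepsins, went from 0.380 ± 0.297 to 24.9 ± 2.71 CPM. The most abundant inhibitor was Cstb, encoding the cytosolic stefin B and named here after its value was seen, at 707 ± 93.3 and 871 ± 133 CPM, which did not pass the test (edgeR adjusted p = 0.064). The Stfa and Csta genes are near-identical copies, so their counts are uncertain, and Csta1 and Kng1 were not analysed here. Neutrophil markers rose in the same libraries (11 of 12), but 6 of these reached the filter in the TMAO libraries alone and could only be higher. The part of neutrophil cells in the inhibitor results was not tested.

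Genes that tag and carry cathepsins to the lysosome were mixed: of 12, 6 fell, 2 rose and 4 did not pass (median log2 fold change -0.25). Gnptab, encoding the enzyme that starts the mannose 6-phosphate tag, fell from 176 ± 13.3 to 55.0 ± 9.15 CPM (log2 fold change -1.68, edgeR adjusted p = 1.37e-06). With the length trend removed, the log2 fold change of Gnptab was -1.29. Igf2r, the large receptor for the tag, fell from 415 ± 49.6 to 129.8 ± 27.5 CPM, and Sort1, the sorting receptor sortilin, from 106 ± 11.1 to 43.3 ± 2.63 CPM. Their log2 fold changes of -1.67 and -1.29 were -0.97 and -0.75 with the length trend removed. Of 6 lysosomal partners and substrates of cathepsins, 4 fell and 2 rose (median -0.36). Glb1, encoding beta-galactosidase, which cathepsin A protects, rose from 80.9 ± 3.10 to 115 ± 8.43 CPM while Ctsa fell. Galns, an N-acetylgalactosamine sulfatase found with the same complex, fell from 94.95 ± 4.48 to 55.5 ± 2.95 CPM, and Gm2a, encoding the GM2 activator, from 561 ± 24.8 to 296 ± 17.0 CPM.

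Genes of the pathways that cathepsins serve moved in different directions. Of 10 MHC class II genes, 9 reached the filter in both groups, of which 8 rose and none fell. H2-Ab1 rose from 44.1 ± 9.02 to 172 ± 10.9 CPM and H2-Eb1 from 21.3 ± 5.13 to 132 ± 27.1 CPM, in the libraries where Ctss was lower. H2-Ob, at 0.0504 ± 0.0515 and 4.28 ± 0.428 CPM, reached the filter in the TMAO libraries alone. B cells, dendritic cells and some monocytes also express MHC class II genes. In the same libraries the B cell markers reached a sum of 15.8 CPM and all 6 monocyte markers rose. Of the dendritic cell markers, 5 of 7 passed higher, but 4 of these reached the filter in the TMAO libraries alone and could only be higher. The lower sum of that list was mostly Itgax. The part of these cell types was not tested. All 6 genes of the endosomal Toll-like receptor list fell (median -2.26). Tlr3, a sensor of double-stranded RNA, fell from 21.0 ± 2.04 to 2.38 ± 0.565 CPM, Tlr7, a sensor of single-stranded RNA, from 146 ± 17.8 to 57.5 ± 6.09 CPM, and Tlr13, a sensor of bacterial ribosomal RNA, from 569 ± 41.8 to 218 ± 20.1 CPM.

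Of 7 transcription factor genes of lysosome and macrophage programmes, 3 rose and 3 fell (median log2 fold change -0.051). Maf fell from 181 ± 8.37 to 55.3 ± 4.36 CPM (log2 fold change -1.71, edgeR adjusted p = 1.82e-07), or by -1.21 on the log2 scale with the length trend removed. Mitf, a relative of TFEB, fell from 115 ± 11.7 to 62.8 ± 1.63 CPM (log2 fold change -0.87, edgeR adjusted p = 2.08e-05), or -0.55 with the length trend removed. Its relatives moved in different directions: Tfeb fell from 42.5 ± 1.74 to 28.1 ± 0.977 CPM (log2 fold change -0.60, edgeR adjusted p = 0.000174), and Tfe3 rose from 151 ± 3.81 to 213 ± 16.7 CPM (log2 fold change 0.50, edgeR adjusted p = 0.000498), both named after their values were seen. Spi1, which encodes PU.1, rose from 349 ± 30.1 to 649 ± 45.7 CPM (log2 fold change 0.90, edgeR adjusted p = 1.87e-05), in the libraries where Ctsc was higher and Ctss lower. The log2 fold change of Spi1 was 0.70 with the length trend removed and 0.62 with the GC trend removed.

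**Figure D4:**
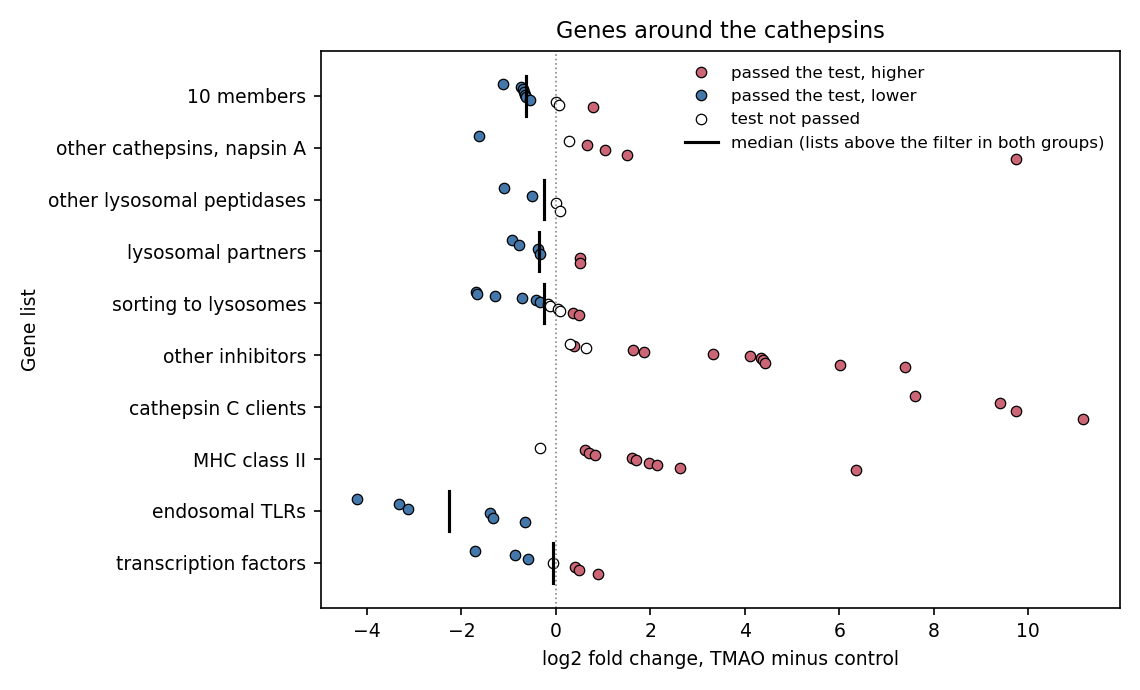
Log2 fold change, TMAO minus control, of each tested gene in 10 gene lists; red and blue points passed the test higher and lower, open points did not pass, and black bars are medians of the lists whose tested genes all reached the filter in both groups. The 10 cathepsin, legumain and cystatin C genes centre at -0.64 and the endosomal Toll-like receptor list at -2.26.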

How the data were processed

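Raw counts by Ensembl gene, not normalized, were deposited in 1 table of the 6 libraries. Reads were placed on GRCm39 per the submitters' processing notes. Which aligner, counter and strand setting were used is not given in the sources used here, so reads of genes that overlap on either strand cannot be told apart. Symbols (25386 of 25751 genes), transcript lengths and GC content came from GENCODE on GRCm38, matched by gene ID. Samples were grouped by title. The labels name sequencers of different makers without assigning libraries to them, so a platform effect cannot be told apart from TMAO. Low counts were removed with filterByExpr (minimum count 10, or 0.257 CPM in 3 libraries; a gene reaches it in a group where all 3 libraries do), libraries scaled by TMM, and TMAO compared with control by edgeR 4.0.16 (quasi-likelihood F test, R 4.3.3, limma 3.58.1), with Benjamini-Hochberg adjustment over 14626 genes and a threshold of 0.05. The SE is the log2 fold change over the square root of F. Lower bounds set a group without counts at 3 counts in all and cover counting error only. Steps were tested on simulated data. Alternatives were DESeq2 1.42.0, limma-voom, the newer quasi-likelihood moderation, other scalings and filters, a test against a fold of 1.5, removal of length or GC trends, a replicate block and each library left out.

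The members and lists were chosen with earlier results of these data known. Named genes were the 10 members and, of each other list, the 3 with the smallest p (2 in lists with fewer than 6 tested genes). Replicates differed beyond sampling noise (chi-square per degree of freedom at least 14.2).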

Additional observations from a re-analysis of the deposited data

How the results depend on the processing

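The counts of members called, 7 lower and 1 higher, were the same under all 20 alternatives but the test against a fold of 1.5, where 2 were lower (Ctss and Ctsh) and 1 higher, with 2630 higher and 2554 lower over all genes. Without each library in turn, the members called stayed at 7 and 1, and the genes called over the whole table ran from 4392 to 4955 higher and from 4225 to 4976 lower. Of 200 log2 fold changes of the members under alternatives, 184 kept direction and call, 6 lost the call and 10 turned direction. Of 480 for the other named genes, 478 kept both and 2 lost the call. The call of Ctsl was also lost with the length trend removed, and Ctsz was called lower there (edgeR adjusted p = 0.0169). The 7 lower members under that setting are therefore a different set of genes. The turns were all in the 2 genes that did not pass the test. Ctsz was at -0.029 with library size only, -0.020 without a count filter, -0.32 with the length trend removed and -0.23 with the GC trend removed, and ran from -0.073 to 0.064 when each library was left out in turn. Lgmn was at -0.14 with the length trend removed and -0.0063 with the GC trend removed, and ran from -0.0089 to 0.11 over the libraries left out. The cause was not tested. Deviations of same-numbered control and TMAO libraries correlated across genes at 0.078, 0.25 and -0.15, and not every library correlated best with its own number. So few pairs cannot show whether same-numbered libraries shared an animal or a day, and the main fit used no pairing. With the replicate number as a block, 4887 genes were higher and 4836 lower, and the members called were 7 and 1. With the 20 most abundant genes left out, 3 members among them, the members' share of counts averaged 1.12% in control and 0.892% in TMAO libraries. Scaling without the members and the APPRIS transcript lengths were chosen after seeing the data.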
